A study of Mus musculus with 8 samples.

Results

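The cardiac T-box factor genes Tbx5, Tbx3, Tbx20, Tbx18, Tbx2 and Tbx1 were examined for CHD4 occupancy in mouse atria. All 6 were found among the 21887 protein-coding genes that RefSeq lists for GRCm38.p6, the assembly of build mm10. Peaks of 4 CHD4 ChIP libraries that shared at least 1 bp were merged into sites. Of the 121267 sites so formed, 93 overlapped the body of one of these genes or the 50 kb on either side of it. Tbx5 had 35 of them, Tbx20 had 25, Tbx2 had 13, Tbx1 had 9, Tbx3 had 7 and Tbx18 had 4.

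CHD4 ChIP-seq was done on dissected, flash-frozen right and left atria, which the labels describe as mixed in cell type. All mice were TBX5flox/flox, that is, both Tbx5 alleles carried loxP-flanked DNA that Cre recombinase removes. The TBX5 KO atria came from mice given AAV9:Nppa-Cre, and the control atria from mice given AAV9:Nppa-EGFP, both on postnatal day 2. Each group had 2 ChIP libraries and 2 input libraries, and the comparison asks where CHD4 lies on atrial chromatin with and without TBX5. Sequence of Nppa, the atrial natriuretic peptide gene, directs Cre to atrial cardiomyocytes, so fibroblasts, vessel cells and other cells of the tissue are not meant to lose Tbx5. The sources used here give neither the age at dissection nor whether replicates were separate animals or pools. The spread between replicates may therefore be technical.

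The groups were taken from the library titles. In the genotype and treatment fields the groups are the reverse, and the protocol calls the Cre mice CHD4 KO, so every direction given here rests on the titles. A CHD4 peak at Tbx5 measures neither Tbx5 deletion nor Tbx5 expression and cannot check the titles.

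T-box proteins bind DNA through a shared domain, the T-box, and read a short core sequence that contains GGTGT. TBX5 and TBX20 are needed for cardiomyocyte gene expression in the developing and mature heart, while TBX2 and TBX3 are repressors that hold back the working myocardial programme in the atrioventricular canal and conduction system. TBX18 marks the sinus venosus, the sinus node and the epicardium, and TBX1 acts in the pharyngeal mesoderm and second heart field that build the outflow tract. CHD4 is the motor subunit of NuRD, a complex that joins nucleosome remodelling to histone deacetylation.

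Promoters of the members are shown because they span the range of calls, from a peak in every library at Tbx20 to none at Tbx1. The RefSeq promoter table of GRCm38.p6 held entries for Tbx20, Tbx18 and Tbx1, the last with a pair of starts. The 250 bases before the start are printed 5′ to 3′ on the gene's strand, with matches to the T-box core letters GGTGTG or AGGTGT on either strand in capitals. The 2 motifs overlap each other in AGGTGTG. The first lies at chr9:24774304-24774553, the second at chr9:87731261-87731510 and the last, from the outer start of Tbx1, at chr16:18590672-18590921, all on the minus strand.
Tbx20 promoter: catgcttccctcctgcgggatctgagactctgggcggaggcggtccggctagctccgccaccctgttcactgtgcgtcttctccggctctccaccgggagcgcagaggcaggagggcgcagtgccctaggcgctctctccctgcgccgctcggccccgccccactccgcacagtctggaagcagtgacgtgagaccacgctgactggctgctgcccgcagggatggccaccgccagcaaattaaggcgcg
Tbx18 promoter: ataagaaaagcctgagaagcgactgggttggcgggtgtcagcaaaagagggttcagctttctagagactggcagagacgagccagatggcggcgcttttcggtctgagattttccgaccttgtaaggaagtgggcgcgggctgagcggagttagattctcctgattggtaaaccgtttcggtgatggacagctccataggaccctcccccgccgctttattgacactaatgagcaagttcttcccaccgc
Tbx1 outer promoter: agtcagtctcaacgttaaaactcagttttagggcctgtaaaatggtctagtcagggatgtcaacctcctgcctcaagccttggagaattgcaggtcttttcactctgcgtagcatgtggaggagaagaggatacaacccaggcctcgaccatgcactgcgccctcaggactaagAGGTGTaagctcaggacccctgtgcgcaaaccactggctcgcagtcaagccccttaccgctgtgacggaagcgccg

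A match to GGTGTG or AGGTGT was found in the outer Tbx1 promoter alone, as AGGTGT at 76 bases before the start. Of 32851 mouse promoters of the same length, 22.2% held GGTGTG or AGGTGT. The inner Tbx1 promoter (chr16:18588900-18589149) held neither. The shorter GGTGT was not searched by itself, and the Tbx18 promoter holds it unmarked. The GATA letters GATAAG and AGATAA were in none of the 4 promoters, against 6.55% and 9.99% of all promoters. The NKX2 letters AAGTG were in the Tbx18 promoter alone and occur in 40.7% of all promoters, while CACTTNA, whose first letters are AAGTG on the other strand, was in none of the 4 and is in 10.1% of all. The Tbx20 promoter lay under a peak in all 4 libraries, with summits 68 and 55 bases before the start in the TBX5 KO libraries and 57 and 74 bases before it in the control libraries. The Tbx18 promoter also lay under a peak in all 4, with summits 153 and 371 bases before the start in TBX5 KO and 153 and 136 in control libraries. Neither Tbx1 promoter lay under a peak in any library.

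CHD4 peaks were fewer across the whole genome in the TBX5 KO libraries, which held 61173 and 69557 peaks over 47.6 and 57.5 Mb, against 99924 and 91520 peaks over 97.0 and 86.7 Mb in the control libraries. The lists give no read totals, so depth is unknown, and a site that is not called may still be occupied below the caller's threshold. Peaks do not measure expression, so the tissue label was not checked by them. Control-only sites are those with a call in both control libraries but in no TBX5 KO library, and their shares are given of the sites called in both control libraries, 24.9% over the series. At 5 atrial cardiomyocyte marker genes they were 28 of 68 (41.2%), 14 of them at Bmp10 alone. At 2 ventricular markers they were 3 of 16, all at Myl2, and Irx4 had no site. They were 6 of 47 (12.8%) at 3 fibroblast markers and 2 of 15 at 2 smooth muscle markers, all at Myh11. At 3 endothelial markers they were 13 of 51 (25.5%, with 11 at Pecam1) and at 3 epicardial markers 5 of 16. At 2 blood markers they were 7 of 20, with 6 at Cd68. At 3 sinus node markers they were 5 of 10, all at Hcn4. The part of cell composition in the results at the T-box genes was not tested. In whole atria, fewer cells with CHD4 at a locus and less CHD4 per cell cannot be told apart.

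At the T-box loci sites went uncalled in the TBX5 KO libraries about as often as elsewhere. The sites called in every library were narrower in TBX5 KO, mainly those at Tbx5 and Tbx20. Both control libraries had a call at 59 T-box sites, and 31 of these (52.5%) were called in all 4, against 55.8% over all such sites of the series. A further 10 were called in one of the TBX5 KO libraries. The remaining 18 were control-only, a share of 30.5% (95% Wilson interval 20.3% to 43.1%, counting error only), against 24.9% of all such sites. Both shares are near those of the series, so the calls alone are no result about these genes. Of the 32 T-box sites called in both TBX5 KO libraries, 0 were TBX5 KO-only, against 1.91% over the series. Counting error alone, with sites taken as independent, would allow a share of up to 9.38% (3 of 32). The count depends on how peaks are merged, and it was 5 of 32 by summits within 250 bp. The other T-box sites were 22 called in a single control library, 7 called in a single TBX5 KO library and 5 called in a mixture that does not follow the groups.

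Most of the 18 control-only sites lay at Tbx5, with 8 of 24, and Tbx20, with 6 of 16. The other 4 genes together had 4 of 19 (21.1%). Tbx2 had 2 of 7, Tbx3 had 1 of 4, Tbx1 had 1 of 5 and Tbx18 had 0 of 3. When a library was left out, the peaks were merged again without it, so the sites themselves also changed. The count at Tbx5 was then 21 of 41 without control replicate 1 and 16 of 37 without control replicate 2. That at Tbx20 was 16 of 28 without control replicate 2. Over all sites the same shares were 36.9% without control replicate 1 and 40.6% without control replicate 2. In lists trimmed to the 61173 strongest peaks of each library, the control-only sites were 5 of 19 at Tbx5, 1 of 9 at Tbx20 and 7 of 42 (16.7%) over the 6 loci, against 14.8% over the series.

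**Figure D1:**
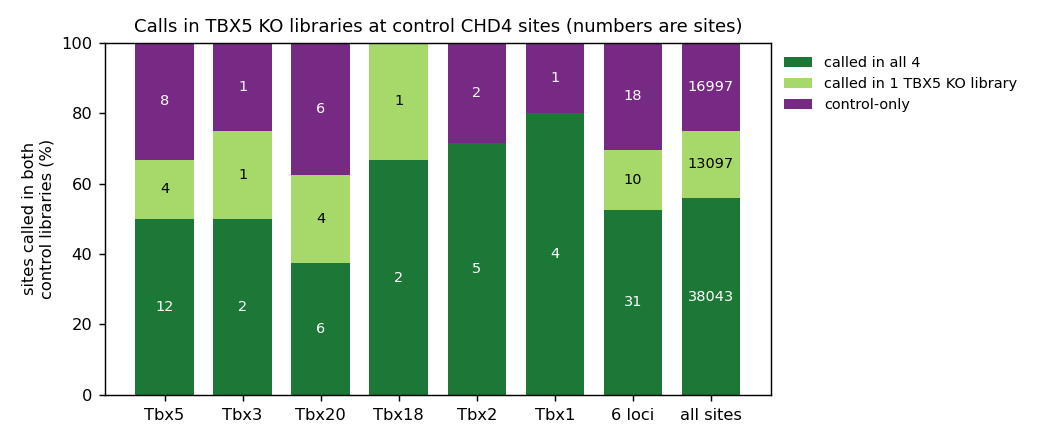
Share (%) of the CHD4 sites called in both control libraries that were called in all 4 libraries, in 1 TBX5 KO library, or in neither (control-only), for each T-box gene, the 6 loci together and all sites of the series; numbers in the bars are sites. Over the 6 loci 18 of 59 sites were control-only, against 16997 of 68137 over the series.

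The length of DNA under peaks differed more than the number of peaks. The TBX5 KO libraries had 57 and 73 peaks at the 6 loci, against 91 and 85 in the control libraries, a ratio of the means of 0.739. The groups did not overlap, and the two-sided exact permutation test gave p = 0.33. With 2 libraries in each group no smaller p is possible, and no difference here can reach 0.05. In the trimmed lists of equal length the ratio was 1.06 (exact permutation p = 0.667), so the lower number was not seen in them. Why the number differed in the full lists was not tested. Bases under peaks were 40843 and 50332 in TBX5 KO, against 130696 and 122410 in control libraries, a ratio of 0.360, again with no overlap (exact permutation p = 0.33). Over the genome the same ratio was 0.572 in the full lists. At the 6 loci it was 0.391 in lists of equal length, for which no genome value was computed. Without Tbx5 the ratio of bases at the other 5 loci was 0.514.

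The 31 sites called in all 4 libraries show the loss of width within the same sites. Their median width, summed over the peaks of a library in a site, was 738 and 1206 bp in TBX5 KO and 1877 and 1827 bp in control libraries, a ratio of 0.525 (exact permutation p = 0.33). The ratio was 0.322 with 10 kb in place of 50 kb on each side. Over all 38043 such sites of the series the ratio was 0.706, from smaller control medians of 1257 and 1142 bp. Of the 31 T-box sites, 24 (77.4%) were narrower in both TBX5 KO libraries than in either control library, against 57.3% of sites in the series. One of the 31 (3.23%) was wider in both, against 3.3%. Most of the narrower sites lay at Tbx5, with 11 of 12, and Tbx20, with 6 of 6. The other genes had 3 of 5 at Tbx2, 2 of 4 at Tbx1, 2 of 2 at Tbx3 and 0 of 2 at Tbx18. By the strength of their strongest peak, ranked by −log10 p within each list, the same sites stood at a mean percentile of 55.4 and 58.5 in TBX5 KO and 75.9 and 71.6 in control lists. Lists of unequal length give ranks that show no change by themselves. The difference was -16.8 percentile points here, against -9.57 over the series in the same full lists. In lists of equal length it was -5.52 here, and no series value was computed for them.

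By gene, 5 of the 6 had fewer bases under peaks in both TBX5 KO libraries than in either control library, and Tbx18 was the exception. Across the 17759 genes with any covered base the share was 80.7%, so a count of 5 in 6 is near what any gene would give. None of the 6 had more bases in both TBX5 KO libraries, against 1.08% of genes. The ratio of TBX5 KO to control bases had a median of 0.704 over the 6 genes and 0.630 over all 17681 genes covered in control, with quartiles of 0.506 and 0.753. The 6 genes were spread widely around that middle: Tbx5 and Tbx20 stood in its low tail, Tbx3 near the median, Tbx1 and Tbx2 above the upper quartile and Tbx18 in the high tail. The place of Tbx18 rests on few bases, 2022 and 3470 in TBX5 KO and 2793 and 1992 in control, with overlapping groups. At Tbx1 the lower control library, with 3893 bases, lay close to the 3688 and 3728 of TBX5 KO.

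**Figure D2:**
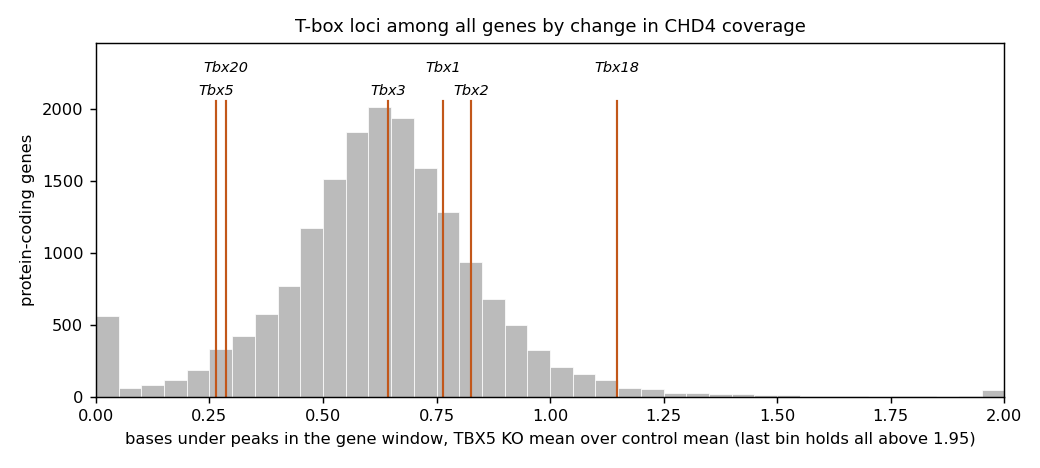
Histogram of protein-coding genes by the ratio of bases under CHD4 peaks in the gene body plus 50 kb on each side, mean of the TBX5 KO libraries over mean of the control libraries; orange lines mark the T-box genes. Tbx5 (0.265) and Tbx20 (0.286) lie in the low tail and Tbx18 (1.15, with overlapping groups) in the high tail, around a median of 0.630.

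Tbx5 encodes the factor deleted in this model. In control atria its 88.7 kb body (chr5:119796514-119885220, mm10) was mostly covered by CHD4 peaks, less so in its lower stretch. Peaks covered 16.0% and 21.9% of the body in the TBX5 KO libraries, against 81.4% and 74.1% in the control libraries. The means were 18.9 ± 4.21% in TBX5 KO and 77.7 ± 5.19% in control (SD, n = 2 each), a 4.10-fold difference with no overlap between groups (exact permutation p = 0.33, the smallest possible). By bases of gene body under peaks, Tbx5 stood at rank 269 of all genes in TBX5 KO and at rank 41 in control atria.

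The number of peaks at Tbx5 did not separate the groups, with 25 and 38 in TBX5 KO and 37 and 42 in control libraries. Their mean width did, at 703 and 627 bp in TBX5 KO against 2186 and 1794 bp in control libraries. The widest single peak measured 1750 and 1549 bp in TBX5 KO, against 9953 and 6305 bp in control. The groups thus overlapped in peak number, where TBX5 KO replicate 1 was below both control libraries, and did not overlap in peak width. Bases under peaks in the window of body plus flanks were 17564 and 23828 in TBX5 KO and 80864 and 75342 in control libraries, a ratio of 0.265. A lower ratio was found for 6.24% of all genes, and for 65 of the 3643 genes (1.78%) with at least 20 kb under peaks in control. Another set was 144 genes of at least 20 kb whose body was at least 50% covered in control. Of these, 6 had a lower body ratio than the 0.244 of Tbx5, and the median body ratio of the 144 was 0.579. Both smaller sets were picked by control coverage, which is also the denominator of the ratio. The share free of that choice is the 6.24%.

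**Figure D3:**
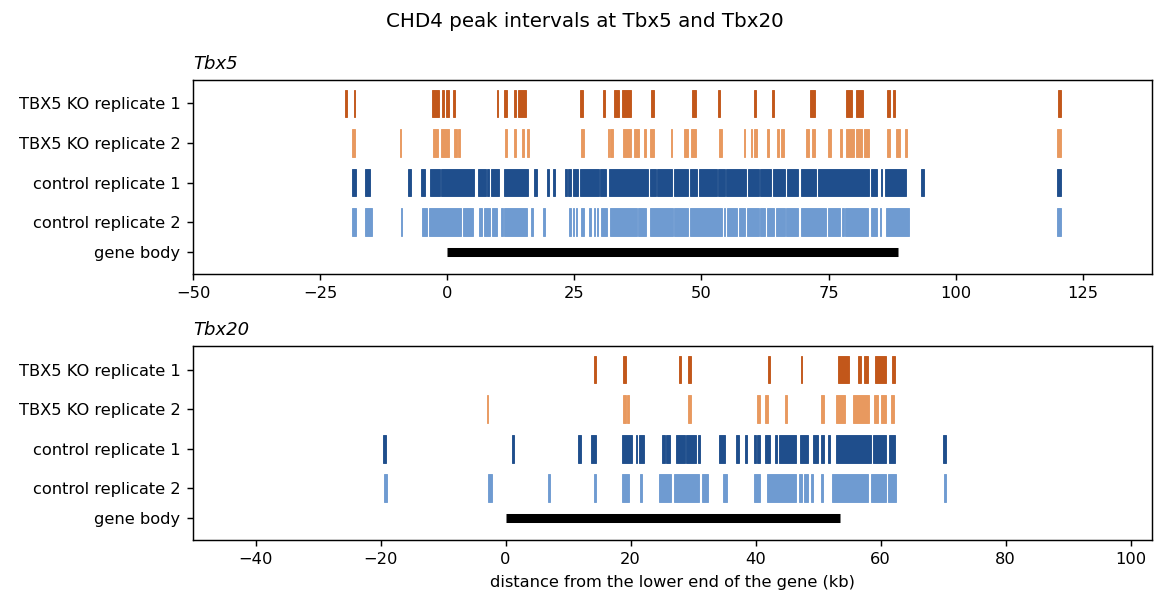
CHD4 peak intervals of each library (coloured bars, a row per library) at Tbx5 and Tbx20, by distance in kb from the end of the gene with the lower coordinate; the black bar is the gene body. Peaks cover 16.0% and 21.9% of the Tbx5 body in TBX5 KO, against 81.4% and 74.1% in control libraries, and 4.22% and 6.71% of the Tbx20 body in TBX5 KO, against 34.8% and 34.6% in control.

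Coverage was lower all along the Tbx5 gene rather than at one stretch of it. The body was split into a lower, a middle and a higher stretch of 29.6 kb each by coordinate. Peaks covered a mean of 12.5% of the lower stretch in TBX5 KO and 60.7% in control. They covered 16.0% and 24.1% of the middle one in TBX5 KO and 88.6% and 86.4% in control, and 18.0% and 30.7% of the higher one in TBX5 KO and 87.9% and 82.2% in control. No stretch had overlapping groups. In the flank below the gene the means were 5.68% in TBX5 KO and 12.9% in control, and in the flank above 2.10% in TBX5 KO and 5.41% in control. Of the bases under a peak of either TBX5 KO library, 97.1% were also under one of either control library. Control peaks covered most of the gene body, so a high share is likely there wherever peaks lie, and no background share was computed. The same share was 97.6% at Tbx20, 89.0% at Tbx3, 84.1% at Tbx2, 73.5% at Tbx1 and 64.2% at Tbx18. Of the bases covered in control at Tbx5, 33.6% were still covered in TBX5 KO. Which stretch of Tbx5 carries the loxP sites is not given in the sources used here, and within it DNA removed by Cre and CHD4 lost from DNA cannot be told apart.

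The site with the highest control rank at Tbx5 was also its widest, at chr5:119866018-119879442 inside the gene. It spans 13425 bp and ranks 117 in width among all sites of the series. Peaks in it covered 3409 and 5765 bp in TBX5 KO, in 3 and 7 separate peaks, against 13054 and 12115 bp in control libraries, in 2 and 4. The groups did not overlap in width. A second broad site, of 8792 bp at chr5:119792963-119801754, spans the lower end of the gene. Its peaks covered 2762 and 3302 bp in TBX5 KO and 8321 and 8258 bp in control. That end may belong to a predicted transcript, because the RefSeq extent includes such models. The strongest of the 8 control-only sites lay outside the gene, 14816 bp below it, at chr5:119780398-119781698, with peaks of 884 and 1301 bp in control. The 1 site of 12 called everywhere that was not narrower lay above the gene at chr5:119916444-119917209, with 645 and 766 bp in TBX5 KO and 686 and 691 bp in control, and it is named after its values were seen.

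Tbx20 encodes a T-box factor needed in adult cardiomyocytes for contractile and ion transport genes. Its 53.5 kb body (chr9:24720812-24774303, minus strand) had the next highest CHD4 coverage in control among the members. Peaks covered 4.22% and 6.71% of the body in TBX5 KO, against 34.8% and 34.6% in control libraries, means of 5.47 ± 1.76% in TBX5 KO and 34.7 ± 0.143% in control (SD, n = 2 each). The difference was 6.35-fold with no overlap between groups (exact permutation p = 0.33). At Tbx20 the number of peaks also separated the groups, at 11 and 13 in TBX5 KO and 28 and 20 in control, and so did mean width, at 626 and 690 bp in TBX5 KO and 974 and 1414 bp in control. Bases in the window were 6885 and 8975 in TBX5 KO and 27261 and 28272 in control, a ratio of 0.286. A lower ratio was found for 6.92% of genes. Among the 3643 genes with at least 20 kb under peaks in control, 87 (2.39%) had a lower one. That set was again picked by control coverage.

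The start of Tbx20 was called in every library, with less width in TBX5 KO, and coverage inside the gene was also lower. The site over the start, chr9:24773087-24779199, contains the promoter printed above and was the strongest and widest of the locus at 6113 bp. Its peaks covered 2739 and 3793 bp in TBX5 KO and 5587 and 5768 bp in control, all libraries having a call there. By strength within each list it stood at percentile 90.5 and 86.5 in TBX5 KO and 98.2 and 91.7 in control. With the body split into stretches of 17.8 kb, peaks covered a mean of 6.86% of the middle one in TBX5 KO and 47.6% in control, and 8.80% of the one next to the start in TBX5 KO and 49.8% in control. The flank beyond the start was less different, at 9.72% in TBX5 KO and 16.8% in control. Of the bases under TBX5 KO peaks, 97.6% were under control peaks, and 32.4% of the control bases were still covered. The strongest of the 6 control-only sites was inside the gene at chr9:24745398-24747227, with 1086 and 1830 bp under peaks in control.

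**Figure D4:**
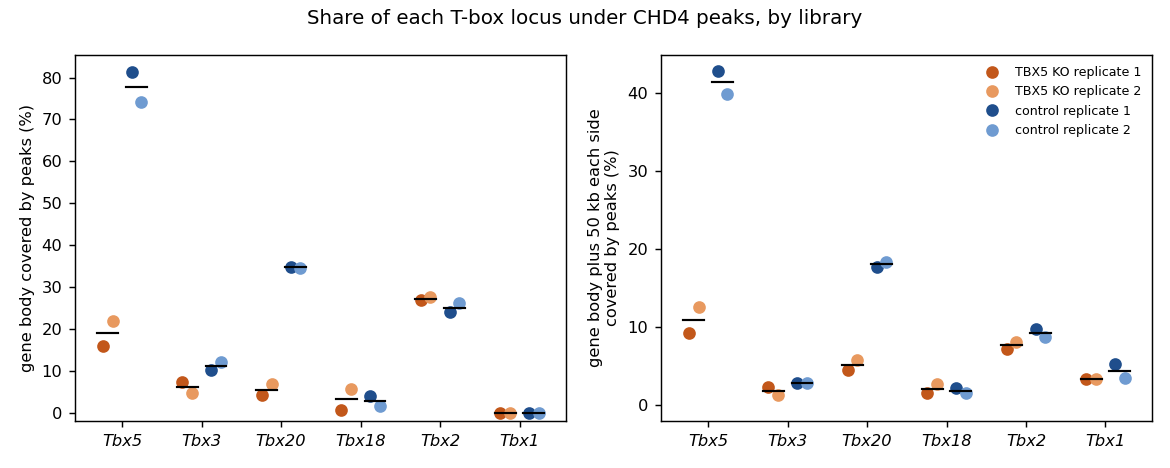
Percent of each T-box gene body (left) and of the body plus 50 kb on each side (right) under CHD4 peaks, a point per library and a bar at each group mean (n = 2 each). The means at the Tbx5 body are 18.9% in TBX5 KO and 77.7% in control, and at the Tbx3 body 5.98% in TBX5 KO and 11.1% in control. The libraries at the Tbx2 body lie at 26.9% and 27.5% in TBX5 KO and 23.9% and 26.1% in control.

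Tbx3 encodes the repressor that marks the conduction system, and it is the neighbour of Tbx5 on chromosome 5. Unlike Tbx5 it had focal CHD4 sites. Its 14.2 kb body (chr5:119670534-119684724) was covered for 7.41% and 4.55% in TBX5 KO and for 10.2% and 12.0% in control. Bases in its window were 2738 and 1475 in TBX5 KO and 3235 and 3314 in control, a ratio of 0.643, close to the median of 0.630 over all genes. One site, chr5:119669759-119671670 over the lower end of the gene, held most of them. It was the strongest T-box site of all by control rank, at percentile 89.9 and 88.1 in TBX5 KO and 98.1 and 97.1 in control lists. Its width was 1816 and 1206 bp in TBX5 KO and 1877 and 1827 bp in control, a ratio of 0.816 with no overlap between groups. The 1 control-only site of Tbx3 (chr5:119671935-119672370) was weak, at a mean percentile of 14.6 in control.

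Between Tbx3 and Tbx5 lay 112 kb with 9 sites. The 11.8 kb between their windows held 0 sites, and the longest stretch without any site in the interval was 63.2 kb. Taken as 1 block of 315 kb, the pair had 42 sites, of which 9 of the 28 called in both control libraries (32.1%) were control-only and 14 were called in all 4. The broad control coverage of Tbx5 did not extend to Tbx3.

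Tbx2 encodes a close relative of TBX3 with a repressor role in the atrioventricular canal. Its short body of 9.33 kb (chr11:85832615-85841948) was covered for 26.9% and 27.5% in TBX5 KO and for 23.9% and 26.1% in control, a ratio of 1.09. With 10 and 10 peaks in TBX5 KO against 9 and 9 in control, it was the 1 member with more peaks in TBX5 KO. Bases in the window were 7946 and 8856 in TBX5 KO and 10746 and 9597 in control, a ratio of 0.826. Coverage was thus slightly higher on the body and slightly lower over the window in TBX5 KO, without overlap in either. The widest site, chr11:85840549-85845519 over the higher end of the gene, had 2731 and 3860 bp under peaks in TBX5 KO and 4145 and 4082 bp in control. The site over the lower end, chr11:85831815-85834006, had 1668 and 1803 bp in TBX5 KO and 1777 and 1938 bp in control, and these ranges overlapped. The strongest site by control rank, chr11:85799494-85800466, lay on the neighbour Bcas3, which 4 of the 13 sites overlap, with 498 and 475 bp in TBX5 KO and 973 and 817 bp in control.

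Tbx18 encodes a factor of the sinus venosus, sinus node and epicardium. It had few peaks, with 2 and 4 in TBX5 KO and 5 and 4 in control libraries. The widest peak measured 1442 and 1447 bp in TBX5 KO and 818 and 816 bp in control, and mean peak width averaged 939 ± 101.5 bp in TBX5 KO and 528 ± 42.9 bp in control (SD, n = 2 each). The mean and the widest peak were thus wider in TBX5 KO without overlap, while peak number and covered bases overlapped between groups. Within each group the widest peaks of the replicates lay at different sites. That of TBX5 KO replicate 2 was weak, at percentile 14.0 of its list. Bases in the window were 2022 and 3470 in TBX5 KO and 2793 and 1992 in control, a ratio of 1.15 (exact permutation p = 0.667). The site over its start, chr9:87730258-87731704, which contains the promoter printed above, was 580 and 1447 bp wide in TBX5 KO and 818 and 483 bp in control. The site that was wider in both TBX5 KO libraries, chr9:87738997-87741121, lies 7737 bp beyond the start, with 1442 and 1399 bp in TBX5 KO and 1309 and 1157 bp in control. Of its body, 0.661% and 5.72% was covered in TBX5 KO and 3.85% and 1.49% in control.

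Tbx1 encodes the pharyngeal and outflow tract factor whose gene lies in the human DiGeorge deletion. It had no CHD4 peak on its body (chr16:18580979-18590671) or on the flank below it in any library. All 9 of its sites lay on the flank beyond its start, where 6 overlap the neighbour Septin5 and 2 overlap Gp1bb. These neighbours overlap each other, and the site at chr16:18621534-18621921 is counted for both. Sites on them cannot be given to Tbx1. The sites at chr16:18604154-18604946 and chr16:18617182-18618253 lie on neither. Bases in the window were 3688 and 3728 in TBX5 KO and 5797 and 3893 in control, a ratio of 0.765. The strongest site, chr16:18625566-18627113, was 1142 and 1223 bp wide in TBX5 KO and 1548 and 801 bp in control, with overlapping groups. The site nearest to Tbx1, 13483 bp from it at chr16:18604154-18604946, was its 1 control-only site.

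**Figure D5:**
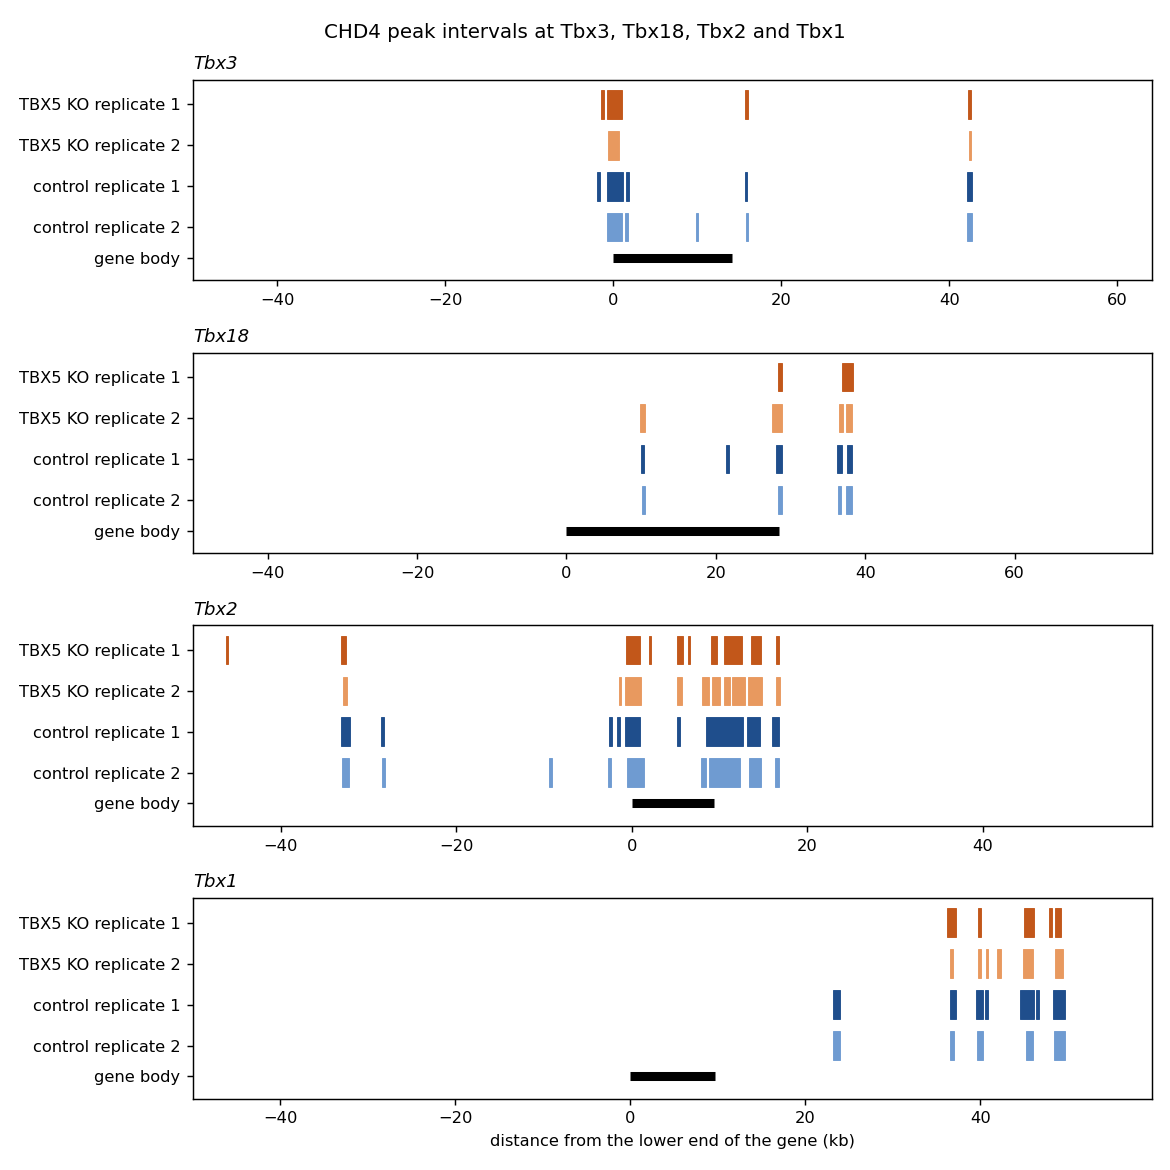
CHD4 peak intervals of each library (coloured bars) at Tbx3, Tbx18, Tbx2 and Tbx1, by distance in kb from the end of the gene with the lower coordinate; the black bar is the gene body. Of the 19 sites called in both control libraries at these genes, 13 were called in all 4, and the Tbx1 body has none in any library.

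Other T-box genes were set beside these 6 as a description. At 11 other members of the family, 20 of 64 sites were control-only (31.3%, Wilson 21.2% to 43.4%), against 24.9% over the series. Of these genes, 7 had fewer bases under peaks in both TBX5 KO libraries and 0 had more, against 80.7% and 1.08% of genes with any covered base. Tbx22, which has no covered base, is counted among the 11. The median ratio of bases was 0.533, against 0.630 over all genes. Tbx10 had more control-only sites than any other gene of the list, 6 of 15, where peaks covered 8.78 and 9.31 kb in TBX5 KO and 33.2 and 31.7 kb in control. Tbx6, a factor of paraxial mesoderm, and Mga, a large T-box and MAX-binding protein gene, had 4 control-only sites each, of 13 and 10. The genes with the highest number of sites in all 4 libraries were Tbx6 and Tbx10, with 8 each, followed by Tbx19, a pituitary factor gene, and Mga, with 5 each. Tbx22 had 0 sites. The window of Tbx4 overlaps that of Tbx2, so sites there can be counted for both.

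At 16 genes of factors and signals that act with the cardiac T-box proteins, 32 of 123 sites were control-only (26.0%, Wilson 19.1% to 34.4%), near the 24.9% of the series. Of the 16, 10 had fewer bases in both TBX5 KO libraries and 0 had more, against 80.7% and 1.08% of genes with any covered base. Isl1, which has no covered base, is counted among the 16. The median ratio was 0.538, against 0.630 over all genes covered in control. The count of 10 is not above the share over genes with any covered base. Nkx2-5, the cardiac homeobox factor that binds DNA together with TBX5, had the most control-only sites, 9 of 23, with 8.25 and 10.5 kb under peaks in TBX5 KO and 31.3 and 31.7 kb in control. Mef2c, a MADS-box factor gene, had 8 of 18 and Gata5 had 5 of 12. Gata4, whose protein also partners TBX5, had the most sites called in all 4 libraries, 12, before Nkx2-5 with 10 and Hand2, a basic helix-loop-helix factor gene, with 9. Isl1 had 0 sites.

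The genes with the calls most like those of Tbx5 were Ern1 and Acap1, out of 839 genes with a similar number of sites. Likeness was the distance between the shares of control sites called in both, either or neither of the TBX5 KO libraries. Ern1 had 10 sites called in all 4 and 7 control-only of 21 (distance 0.0292), and Acap1 10 and 7 of 20 (0.0408), beside 12 and 8 of 24 at Tbx5. For Tbx20, out of 2623 genes, Hectd4 had the same shares, with 6 called in all 4 and 6 control-only of 16 (distance 0), and Zfp319 had 7 and 7 of 18 (0.0278). The likeness was taken over 4 libraries and holds for the calls, not for width.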

How the data were processed

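CHD4 ChIP-seq peaks from 4 libraries of mouse atria were examined. The 4 input libraries were not analysed by themselves; per the labels, ChIP and input reads both went into the deposited files. Per the submitters' processing notes, MACS2 and DiffBind were used on build mm10, without versions. Aligner, filters and calling options: not given in the sources used here. Every list comes from a single library, so replicates were not pooled.

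The authors' lists give each peak a deposited score, a fold (the authors' ratio of pileup to local background), and the authors' −log10 p and −log10 q, the lowest −log10 q being 1.30 to 1.31. These values described or ranked peaks within a list. Between libraries, calls, widths and bases under peaks were compared, and all of these move with the sensitivity of each library. Read totals are not in the lists, so depth is unknown and intervals cover counting error only.

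Gene ends came from RefSeq GRCm38.p6, without strand or exons. Strand was read from its promoter table, which gave 4 entries for 3 of the 6 genes. Peaks were merged into sites at 1 bp of overlap. Groups were compared over libraries with two-sided exact permutation tests, and no model across features was fitted. Python 3.11.15, pandas 2.3.3, numpy 2.4.6, scipy 1.17.1 and matplotlib 3.10.9 were used. The counting steps were tested on simulated data.

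The members, gene lists and tests were chosen with earlier results of these data known. Sites named are, per gene, the strongest and the widest, the strongest control-only one and the one nearest the start or lower end. From each gene list, up to 3 genes leading in control-only sites and up to 3 leading in sites called everywhere are named. The 2 genes nearest in pattern are named for members with at least 10 control sites, among genes within 20% of the site number. Alternatives tried were lists of equal length, peaks with −log10 q at or above 3 or 5, overlap of 50% of the shorter peak, summits within 250 bp, windows of 10 or 100 kb, a replicate block, exchanged groups, leaving out each library or gene, and Tbx3 and Tbx5 as 1 block. The values for Tbx5 and Tbx20 alone under these alternatives were chosen after seeing the data. The cutoffs of 20 kb and 50% of control coverage used for sets of genes were not set beforehand and were not varied.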

Additional observations from a re-analysis of the deposited data

How the results depend on the processing

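With the groups exchanged, as the genotype and treatment labels have it, the ratios became 1.35 for peaks, 2.78 for bases under peaks and 1.91 for median width, the percentile difference became 16.8, the control-only share 0 and the TBX5 KO-only count 18, and the ratio of bases was 3.77 at Tbx5 and 3.50 at Tbx20. In lists of equal length the ratio of peaks was 1.06, the control-only share 16.7% and the TBX5 KO-only count 1 of 31. By summits within 250 bp the TBX5 KO-only count was 5 of 32. Leaving out each library gave a control-only share of 38.3% to 43.4% (31.3% to 40.6% over all sites). TBX5 KO-only sites then ranged from 0 of 35 to 6 of 43. For these settings the TBX5 KO-only share over all sites was not computed, so the counts have no background beside them. A pattern over fewer libraries is met more often, and merging without the library left out also changed the sites. Without control replicate 1 the peak numbers of the groups overlapped (ratio 0.765, exact permutation p = 0.667).

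Apart from exchange, the ratio of median width was 0.322 to 0.636, the ratio of bases over the 6 loci 0.261 to 0.514, that at Tbx5 0.157 to 0.305 and that at Tbx20 0.224 to 0.350. The share of genes with a lower ratio was 4.23% to 8.01% for Tbx5 and 5.40% to 9.42% for Tbx20. With Tbx3 and Tbx5 as 1 block, values were unchanged for the 6 results run.

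The replicate deviations of log2 fold in same-numbered libraries correlated with r = -0.0673 over 38043 sites, from 2 pairs. So few pairs cannot show whether such libraries share more than a number. With the replicate block the ratios were 0.743 for peaks, 0.362 for bases and 0.527 for width, each with exact permutation p = 0.5, the smallest that 2 pairs allow. The overlap and summit settings were not run for peaks or bases, which do not use merged sites.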

Other observations

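At marker loci outside the T-box family, bases under peaks at Bmp10, an atrial growth factor gene, averaged 1.07 kb in TBX5 KO and 24.6 kb in control libraries (n = 2 each). At Hcn4, the pacemaker channel gene of the sinus node, they were 0.447 and 0.71 kb in TBX5 KO and 6.85 and 7.13 kb in control. Shox2, a sinus node factor gene, had 1.11 and 1.49 kb in TBX5 KO and 1.25 and 0.886 kb in control, and Isl1 had no site. At sinus node markers 5 of 10 sites called in both control libraries were control-only, all 5 at Hcn4.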
